A study of Mus musculus with 30 samples.

Results

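Cannabidiol (CBD) at 3 µM was compared with vehicle after 6 h of exposure in mHypoA-2/12 cells, a line derived from adult mouse hypothalamus and immortalised with SV40 large T antigen. The comparison rests on the libraries whose treatment label is CBD3_6h (A4, A5 and A6) or CTR_6h (A1, A2 and A3), which are 6 of the 30 libraries of the series, and every gene of these libraries entered it. The series covers vehicle and 4 doses of CBD, from 0.325 µM over 0.75 µM and 1.5 µM up to 3 µM, each at 6 h and at 24 h, with 3 libraries per group, sequenced from the 3′ end of messenger RNA. Per the methods, both groups were cultured in the same medium, the vehicle wells carried 0.1% DMSO, and CBD was delivered in DMSO at that same final concentration. A single cell line without other brain cells was used, so the model holds neither synaptic partners nor other hypothalamic cell types. Nothing in the labels says whether the 3 libraries of a group came from separate cultures, and p-values then measure only the spread between these libraries.

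CBD is a non-intoxicating cannabinoid of Cannabis sativa with many proposed receptors and channels. Several gene programmes read below are textbook sensors of the state of a cell. In the integrated stress response, phosphorylation of the initiation factor eIF2α slows translation in general while the transcription factor ATF4 is still translated and induces genes of amino acid supply, redox balance and feedback. Early-response genes such as Fos, Jun and Egr1 are induced within minutes of growth factor or stress signals, interferon-stimulated genes report on antiviral signalling, and genes of the extracellular matrix are the hallmark of mesenchymal cells.

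Between 1839621 and 3574833 reads fell on genes in the 6 libraries, and 12012 genes were tested at 6 h. Of 19 neuronal marker genes, 6 had no read in any of the 6 libraries, among them Npy, Agrp, Pomc and Cartpt, and Snap25, Syp and Rbfox3 stayed at or below 1.73 CPM (normalized counts per 1e6 reads). Mesenchymal genes were abundant in both groups, with Col1a1 at 2329, 2301 and 1785 CPM with vehicle and 2334, 2345 and 2240.4 CPM with CBD. Of the neuronal markers, 7 passed the filter on low counts, among them the neurofilament genes Nefm, at 66.6, 81.8 and 42.3 CPM with vehicle and 49.1, 38.5 and 46.2 CPM with CBD, and Nefl, at 21.5, 31.7 and 26.9 CPM with vehicle and 16.97, 18.2 and 17.8 CPM with CBD. The cells are called by the name of the line. Vehicle library A3 stood apart: it was the deepest of the 6, and its counts differed from A1 and A2 by a mean chi-square per gene of 12.0 and 10.8, against 2.23 between A1 and A2 and from 2.30 to 2.65 among the CBD libraries. By Euclidean distance on log2 CPM, A3 was 78.5 and 77.1 from A1 and A2. It was 65.4 to 67.9 from the CBD libraries. A1 and A2 were 58.9 apart and 64.1 to 66.5 from the CBD libraries. Which of the vehicle libraries better represent vehicle cells was not tested. In A3 the chemokine gene Ccl2 reached 224 CPM against 33.0 and 26.9 CPM in A1 and A2, and the heat shock gene Hspa1a stood at 41.2 CPM against 3.30 and 1.58 CPM (both named after their values were seen). Many results that lean on A3 are therefore given with and without it. This was not done for every gene in which A3 was the highest vehicle library.

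The first question was which genes differed between CBD at 3 µM and vehicle at 6 h. Every direction given is that of the libraries labelled CBD against those labelled vehicle. At a false discovery rate (FDR) below 0.1 in the quasi-likelihood test of edgeR, 6 genes differed (0.05% of the 12012 tested). Maf alone rose (0.00833%), and Ppp1r15a, Hmox1, Mndal, Rn7sk and Plin2 fell (0.0416%). In bulk libraries, fewer cells of a kind and less RNA per cell cannot be told apart. The count depended on single libraries. At an unadjusted p below 0.05 there were 872 genes (7.26%). The count past the FDR was 8 without A1, 2 without A2, 135 without A3 (37 higher, 0.3%, and 98 lower, 0.795%, together 1.1% of 12324 genes), and 1 without A4. Without A5 and without A6 no gene passed in edgeR, where 702 and 722 genes had an unadjusted p below 0.05. All 6 genes also passed in the fit without A3 and in DESeq2, which called 48 genes (0.4%, with 18 higher, 0.15%, and 30 lower, 0.25%).

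**Figure D1:**
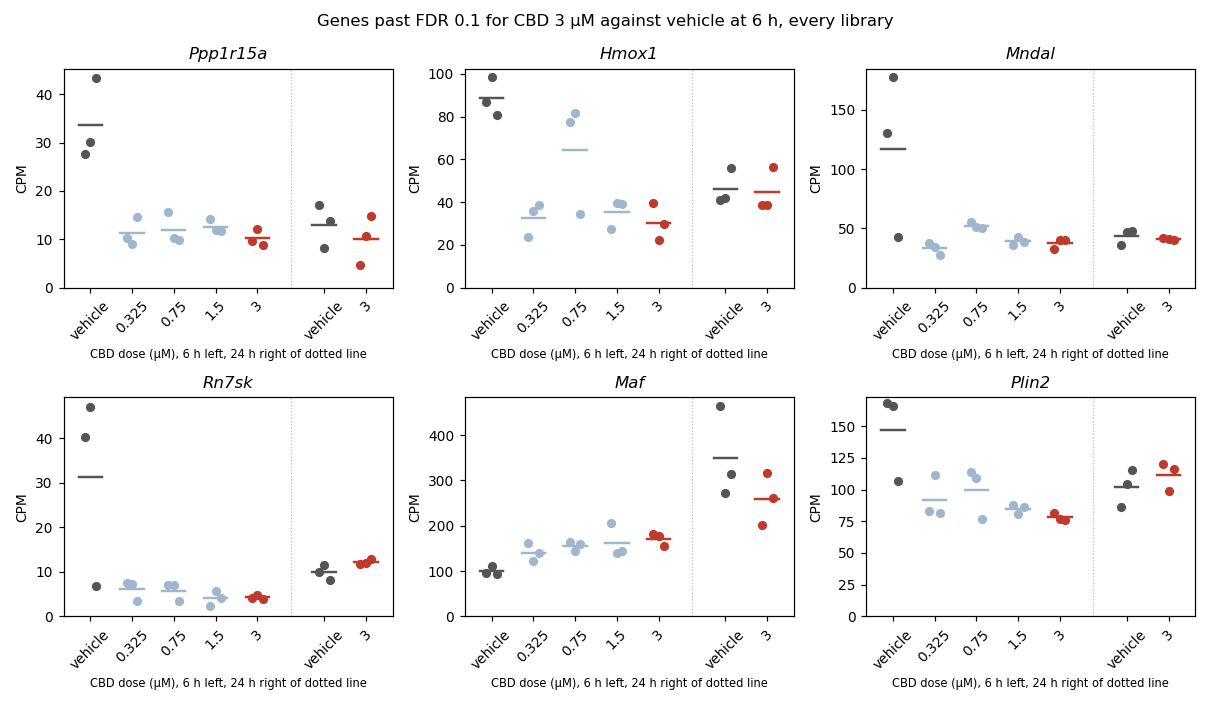
Level of the 6 genes past FDR 0.1 in every library, in CPM on linear axes, for vehicle and each CBD dose at 6 h (left of the dotted line) and for vehicle and CBD 3 µM at 24 h (right). Points are libraries and bars are group means of 3. The CBD 3 µM libraries at 6 h lie outside the range of the vehicle libraries for each gene, while vehicle library A3 lies near the CBD level for Mndal and Rn7sk.

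Ppp1r15a encodes GADD34, the stress-induced subunit that directs protein phosphatase 1 to dephosphorylate eIF2α and so ends the translational block. Its level was 27.5, 30.1 and 43.4 CPM with vehicle and 9.70, 12.1 and 8.90 CPM with CBD (libraries A1 to A3 and A4 to A6 in that order, as in all values that follow). Every CBD library was below every vehicle library, and A3 had the highest level, not a level near that of CBD. The gene fell (log2 fold change -1.74, SE 0.28, FDR 0.0232), and the estimate was -1.49 without A3 (FDR 0.0161). The FDR was 0.18 without A4, 0.102 without A5 and 0.268 without A6.

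The RefSeq promoter table for GRCm38.p6, which gives 250 bases before and 50 bases after each start site, held promoters of 3 of the 6 genes, matched by symbol. The Ppp1r15a promoter held the cAMP response element TGACGTCA, a palindrome bound by CREB and ATF factors, 12 to 5 bases before the start site. It is shown because Ppp1r15a had the smallest p of all genes tested, and the element is in capitals:

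Ppp1r15a, chr7:45526269-45526290, minus strand: gcctctccggTGACGTCAgcac

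These letters occurred in 1.79% of the 32851 promoters of the table, on either strand. The same promoter held the antioxidant response element TGACNNNGC at bases 4 to 12 after the start site, a motif found in 12.4% of promoters. A match of letters is a description and not a measured binding site.

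Hmox1 encodes heme oxygenase 1, the inducible enzyme that splits heme into biliverdin, iron and carbon monoxide and a standard readout of oxidative and heme stress. Its level was 87.01, 98.7 and 80.7 CPM with vehicle and 39.4, 22.1 and 29.7 CPM with CBD. The highest CBD library stayed under the lowest vehicle library by a wide margin, and A3 was close to A1 and A2. Hmox1 fell (log2 fold change -1.53, SE 0.26, FDR 0.03), and the estimate was -1.59 without A3 (FDR 0.00351). The FDR was 0.11 without A2, 0.298 without A5 and 0.268 without A6.

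Plin2 encodes perilipin 2, a coat protein of lipid droplets whose level follows the amount of stored lipid. Its level was 168, 166 and 107 CPM with vehicle and 81.5, 76.5 and 76.3 CPM with CBD. The groups did not overlap, and A3 lay between A1 and A2 on one side and the CBD libraries on the other. Plin2 fell (log2 fold change -0.90, SE 0.18, FDR 0.0874), with an estimate of -1.10 without A3 (FDR 0.00115). Leaving out any one of A1, A2, A4, A5 or A6 took its FDR to between 0.165 and 0.362. Its promoter held the E-box CACGTG across the start site, from base -4 to base 2, letters present in 7.15% of promoters.

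Maf encodes c-MAF, a basic leucine zipper transcription factor, and was the only gene past the threshold that was higher with CBD. Its level was 95.8, 111 and 93.4 CPM with vehicle and 182, 178 and 155 CPM with CBD. The vehicle libraries, A3 included, lay within a narrow band that the CBD libraries exceeded. Maf rose (log2 fold change 0.78, SE 0.16, FDR 0.0874), with an estimate of 0.73 without A3 (FDR 0.039). Its FDR was between 0.11 and 0.362 when any one of A1, A2, A4, A5 or A6 was left out. Among 8 tested genes of the Maf family and its partners, no other had an unadjusted p below 0.05.

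Mndal and Rn7sk shared a different pattern among the vehicle libraries. Mndal, an interferon-inducible gene of the Ifi200 family, gave 131, 177 and 42.6 CPM with vehicle and 32.7, 39.8 and 39.8 CPM with CBD, so that A3 lay just above the CBD libraries and far below A1 and A2. It fell (log2 fold change -1.62, SE 0.30, FDR 0.0378), and the estimate was -2.05 without A3 (FDR 2.65e-08). Rn7sk is 7SK, a small nuclear RNA made by RNA polymerase III that holds the elongation factor P-TEFb inactive, and its name comes from the list of the study, since the reference used here holds no name for its identifier. It gave 40.2, 46.96 and 6.86 CPM with vehicle and 4.24, 4.76 and 3.81 CPM with CBD, from 73, 89 and 25 reads against 14, 11 and 9 reads. Rn7sk fell (log2 fold change -2.82, SE 0.52, FDR 0.0378), and the estimate was -3.34 without A3 (FDR 7.03e-06). The libraries were made for messenger RNA, which 7SK is not. Whether its few reads follow the level of the RNA was not tested.

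With only the 6 libraries of both groups in the fit, Ppp1r15a (FDR 0.0761) and Hmox1 (FDR 0.0307) passed. Maf and Plin2 did not, each with an FDR of 0.138. In that fit Mndal had an FDR of 0.212 and Rn7sk of 0.147. Leaving out A2 took them to 0.208 and 0.177, and leaving out A1 took Rn7sk to 0.115. Leaving out A4, A5 or A6 took both to between 0.257 and 0.298. Mndal lies in a cluster of near-identical genes, and reads with several alignments were not counted, so its level is uncertain. The table held 2 promoters of Mndal, each with the AP-1 element TGANTCA, which 7.81% of promoters hold. They are shown with the element in capitals because the early-response genes that encode AP-1 are read below:

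Mndal, first promoter, chr1:173880390-173880416, minus strand: tatctccttgTGATTCAtcttctttca
Mndal, second promoter, chr1:173880003-173880029, minus strand: tgtactttttTGAGTCAtttctctttc

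The element TGATGCAAT of C/EBP-ATF dimers was in none of the 4 promoters searched and in 0.192% of all promoters.

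A group of 14 genes lay just outside the threshold, with FDR from 0.100 to 0.104. In all 14 the CBD libraries did not overlap the vehicle libraries (12.9% of all genes tested), 6 were higher and 8 lower, and 13 are on the list of genes that the study itself gave for this comparison. The lack of overlap and the shared list follow largely from picking genes of small p in these same samples. Neither is independent evidence. Nupr1, a small chromatin protein induced by stress, gave 32.5, 35.9 and 30.5 CPM with vehicle and 9.70, 15.6 and 12.3 CPM with CBD (log2 fold change -1.40, SE 0.31, FDR 0.100). Gdf15, a secreted stress cytokine that signals to the hindbrain to lower food intake, gave 25.3, 27.4 and 16.2 CPM with vehicle and 8.18, 6.05 and 6.36 CPM with CBD (log2 fold change -1.70, SE 0.37, FDR 0.100). For both genes the highest CBD library was under the lowest vehicle library. Sqstm1, the autophagy adaptor p62, gave 577, 693 and 502 CPM with vehicle and 337, 405 and 367 CPM with CBD (log2 fold change -0.67, SE 0.15, FDR 0.100). Plk2, a kinase induced by serum and p53, gave 47.9, 45.9 and 49.2 CPM with vehicle and 26.7, 22.9 and 17.4 CPM with CBD (log2 fold change -1.08, SE 0.24, FDR 0.100). The vehicle levels of Plk2 were nearly equal, and those of Sqstm1 were lowest in A3.

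Trib1, a pseudokinase that directs C/EBPα to degradation, gave 199, 153 and 222 CPM with vehicle and 116, 120.2 and 106 CPM with CBD (log2 fold change -0.75). Zfas1, a host gene of small nucleolar RNAs, gave 90.3, 94.4 and 129 CPM with vehicle and 71.8, 58.4 and 50.9 CPM with CBD (log2 fold change -0.79), and the ribosomal protein gene Rpl35 gave 140.4, 150.4 and 158 CPM with vehicle and 89.7, 94.3 and 106 CPM with CBD (log2 fold change -0.63). In all 3 genes each CBD library was below each vehicle library. Gm39325, annotated as an antisense transcript, gave 18.2, 13.7 and 22.5 CPM with vehicle and 6.97, 3.89 and 2.97 CPM with CBD, and its reads cannot be told apart from those of an overlapping partner unless strand was used in counting.

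On the higher side of this group stood Itga1, the collagen-binding integrin α1, with 9.36, 6.86 and 4.39 CPM with vehicle and 18.2, 27.7 and 19.5 CPM with CBD (log2 fold change 1.72, SE 0.36, FDR 0.100). Adamts7, a secreted metalloproteinase, gave 7.16, 4.75 and 6.04 CPM with vehicle and 20.9, 14.7 and 15.3 CPM with CBD (log2 fold change 1.51, SE 0.34, FDR 0.104). Both genes were low in all vehicle libraries, and the lowest CBD library was above the highest vehicle library. Fign, a microtubule-severing enzyme, gave 13.2, 16.9 and 16.7 CPM with vehicle and 29.1, 34.2 and 31.4 CPM with CBD (log2 fold change 0.998, SE 0.22, FDR 0.100). Tmem98, a membrane protein, gave 20.4, 12.1 and 11.8 CPM with vehicle and 32.1, 36.3 and 30.9 CPM with CBD (log2 fold change 1.19, SE 0.27, FDR 0.104). The remaining members rest on few reads: the gene ENSMUSG00000120645, without a name in the reference, had 2, 2 and 5 reads with vehicle and 22, 10 and 21 reads with CBD. The processed pseudogene Gm7783 had 1, 1 and 2 reads against 15, 17 and 13 reads.

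The study listed 37 genes as altered at this dose and time. In the values computed here, 16 of them were higher and 21 lower in the libraries labelled CBD than in those labelled vehicle. That split is not taken from the study. The list was chosen on these same samples, per the methods with DESeq2. Its directions, lack of overlap and calls are therefore no independent evidence. All 37 were without overlap between the groups (12.9% of all genes tested). FDR 0.1 was passed by 6 in edgeR (0.05% of all genes) and by 36 in DESeq2 (0.4%), in which 12 genes outside the list also passed. The exception was Fstl1, a secreted follistatin-like glycoprotein, at 666, 709.7 and 726 CPM with vehicle and 1043, 977 and 938 CPM with CBD, with an FDR of 0.129 in DESeq2 and 0.28 in edgeR (log2 fold change 0.49, SE 0.14). Listed genes of high level were Mgp, an inhibitor of calcification, at 1485, 1439 and 1524 CPM with vehicle and 2782, 2700.0 and 2062 CPM with CBD, and Acta2, smooth muscle actin, at 2028, 2193 and 1373 CPM with vehicle and 3105, 3029.5 and 2727 CPM with CBD. Both were higher in each CBD library than in any vehicle library, with an FDR in edgeR of 0.148 for Mgp and 0.132 for Acta2. Ndrg1, a stress- and hypoxia-responsive gene, gave 127, 170.4 and 98.6 CPM with vehicle and 67.9, 76.5 and 84.3 CPM with CBD (log2 fold change -0.78, FDR 0.137). Il1rn, the natural antagonist of the interleukin 1 receptor, gave 45.7, 37.99 and 33.8 CPM with vehicle and 67.9, 69.6 and 64.8 CPM with CBD (log2 fold change 0.80, FDR 0.13).

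Members of the integrated stress response were mostly lower with CBD. Of 29 members tested, 24 had a negative log2 fold change and 5 a positive one, and the median was -0.35 against -0.01 over all genes. Ppp1r15a was the only member past FDR 0.1. An unadjusted p below 0.05 was reached by 12 members, all lower, against 3.9% of all genes lower and 3.36% higher. This list, like the others below, was chosen with earlier results of these data known, so such shares are no independent evidence. Without A3 the median was -0.44, and 8 members passed FDR 0.1, all lower, against 0.795% of all genes.

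Atf4, the central transcription factor of the response, gave 717, 710.2 and 507 CPM with vehicle and 427, 448 and 402 CPM with CBD (log2 fold change -0.60, SE 0.16, unadjusted p 0.000724). The vehicle libraries A1 and A2 were nearly equal, and A3 lay between them and the CBD libraries. The estimate was -0.75 without A3 (FDR 0.0107). Chac1, which degrades glutathione, gave 36.3, 36.9 and 46.4 CPM with vehicle and 26.1, 24.2 and 22.5 CPM with CBD (log2 fold change -0.73, SE 0.23, unadjusted p 0.00372), and Sesn2, an inhibitor of mTORC1 signalling, gave 29.7, 27.4 and 18.1 CPM with vehicle and 13.6, 17.7 and 10.2 CPM with CBD (log2 fold change -0.84, SE 0.32, unadjusted p 0.0138). The genes of transfer RNA synthetases formed a further group: Gars1 gave 323, 358 and 269 CPM with vehicle and 227, 228 and 251 CPM with CBD (log2 fold change -0.43, SE 0.15, unadjusted p 0.00733) and Nars1 gave 412, 449.6 and 391 CPM with vehicle and 326, 345 and 342 CPM with CBD (log2 fold change -0.30, SE 0.13, unadjusted p 0.0302). In these 4 genes no CBD library reached the lowest vehicle library. Slc7a1, the cationic amino acid transporter CAT1, gave 159.7, 184 and 152 CPM with vehicle and 111, 110.3 and 121 CPM with CBD (log2 fold change -0.53, SE 0.14, unadjusted p 0.000827), whereas no other of 13 tested amino acid transporters had an unadjusted p below 0.05. Atf5, Cars1, Sars1 and Mthfd2 had an unadjusted p below 0.05 with libraries that overlapped, A3 lying within or below the range of CBD. For Atf5 the levels were 397, 444 and 204 CPM with vehicle and 240.1, 251 and 253 CPM with CBD.

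**Figure D2:**
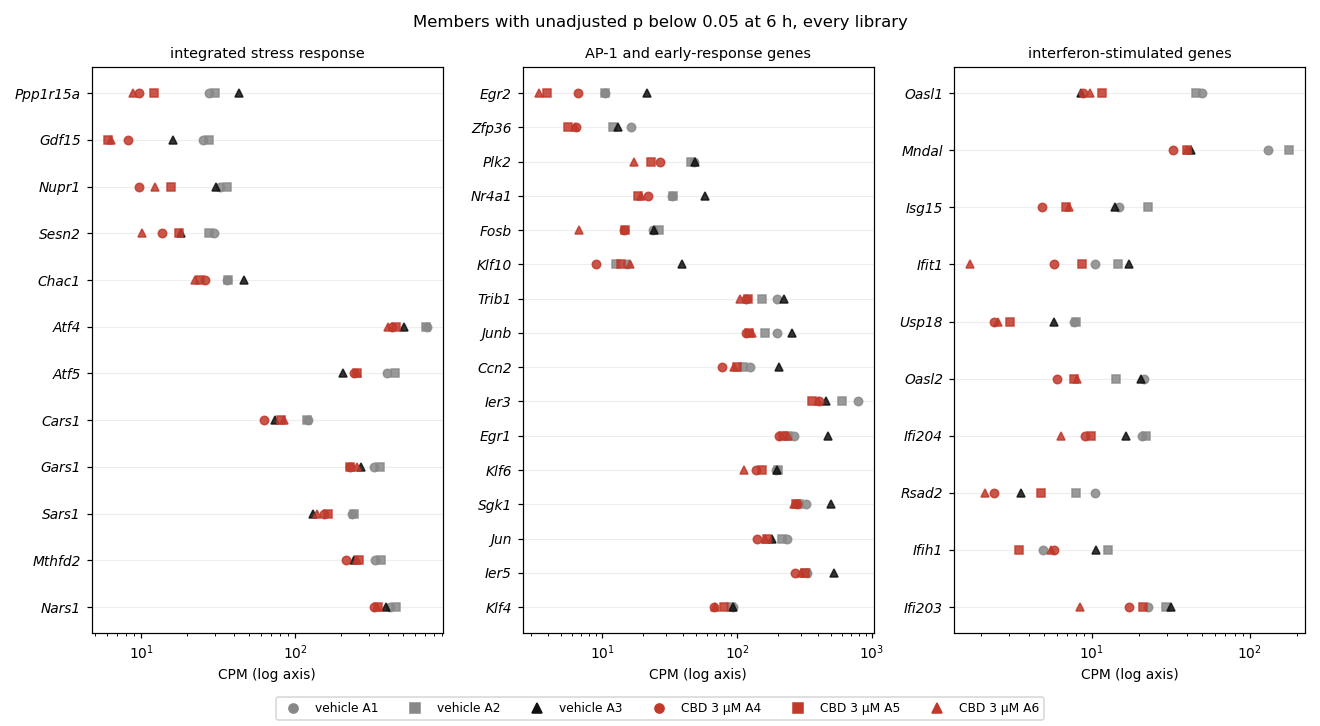
Level in CPM (log axis) of the members with an unadjusted p below 0.05 in 3 gene lists, for vehicle libraries A1 and A2 (grey), vehicle library A3 (black) and CBD libraries A4 to A6 (red). The red symbols lie to the left of A1 and A2 in most genes, and A3 lies at, just above or below the level of CBD for Atf5, Oasl1 and Mndal and to the right of all other libraries for Egr1, Ier5 and Sgk1.

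Early-response genes and genes of AP-1 were lower on balance, and A3 was the highest vehicle library in several of them. Of 33 tested members, 28 had a negative log2 fold change, the median was -0.45, and 16 had an unadjusted p below 0.05, all of them lower, against 3.9% of all genes. None passed FDR 0.1 in edgeR. Without A3 the median was -0.20, and Jun, Ier3, Klf6 and Plk2 passed FDR 0.1, all lower, against 0.795% of all genes. Jun, a subunit of AP-1, gave 236, 217 and 183 CPM with vehicle and 141, 168 and 162 CPM with CBD (log2 fold change -0.43, SE 0.14, unadjusted p 0.00498). Klf6, a zinc finger transcription factor, gave 194, 202 and 198 CPM with vehicle and 137, 153 and 112 CPM with CBD (log2 fold change -0.56, SE 0.14, unadjusted p 0.000438). Ier3, an early gene of cell survival, gave 789, 597 and 459.6 CPM with vehicle and 407, 361 and 401 CPM with CBD (log2 fold change -0.66, SE 0.17, unadjusted p 0.000572). A3 was not the highest vehicle library in any of these genes.

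Junb gave 198, 162 and 256 CPM with vehicle and 117, 122 and 129.7 CPM with CBD (log2 fold change -0.75, SE 0.17, unadjusted p 0.000213), with an estimate of -0.55 without A3 (FDR 0.136). Fosb gave 23.7, 26.4 and 24.2 CPM with vehicle and 14.5, 14.7 and 6.78 CPM with CBD (log2 fold change -1.03, SE 0.32, unadjusted p 0.00352). Zfp36, which promotes decay of messenger RNAs with AU-rich elements, gave 16.5, 12.1 and 13.2 CPM with vehicle and 6.37, 5.62 and 6.36 CPM with CBD (log2 fold change -1.17, SE 0.33, unadjusted p 0.00163). The groups did not overlap in these 3 genes, and the levels of Fosb and Zfp36 in A3 lay within those of A1 and A2. Egr1 differed in kind, with 267, 237 and 475 CPM with vehicle and 204, 218 and 239 CPM with CBD: its estimate of -0.58 became -0.20 without A3 (FDR 0.646). Nr4a1, an orphan nuclear receptor, gave 33.04, 33.8 and 57.7 CPM with vehicle and 21.8, 18.6 and 19.5 CPM with CBD, with an estimate of -1.07 that was -0.74 without A3 (FDR 0.343).

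Of the feedback genes of the MAPK pathway, 5 of 16 had an unadjusted p below 0.05, all lower (3.9% of all genes), with a median of -0.36 that was -0.19 without A3. Dusp1, a phosphatase of MAP kinases, gave 111, 84.4 and 141 CPM with vehicle and 73.1, 73.5 and 47.05 CPM with CBD (log2 fold change -0.80, SE 0.24, unadjusted p 0.00243), and Dusp5, specific to ERK, gave 40.8, 35.4 and 63.2 CPM with vehicle and 23.9, 15.1 and 25.01 CPM with CBD (log2 fold change -1.13, SE 0.33, unadjusted p 0.00216). A3 was the highest library for both, but A1 and A2 were also above every CBD library. Among 8 tested ligands of the EGF receptor, Ereg gave 71.04, 65.96 and 116 CPM with vehicle and 39.7, 46.7 and 45.8 CPM with CBD (log2 fold change -0.96, SE 0.25, unadjusted p 0.000861) and Btc gave 42.4, 25.3 and 25.5 CPM with vehicle and 19.7, 22.5 and 20.3 CPM with CBD (log2 fold change -0.56, SE 0.25, unadjusted p 0.0316). Hes1, a target of Notch, gave 105, 95.5 and 187 CPM with vehicle and 70.3, 60.5 and 63.6 CPM with CBD (log2 fold change -1.01, SE 0.26, unadjusted p 0.000646), and no other of 10 tested Notch genes had an unadjusted p below 0.05. No gene of these 3 lists passed FDR 0.1, with or without A3.

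Of 23 tested p53 targets, 7 had an unadjusted p below 0.05, all lower (3.9% of all genes), and the median was -0.30 (-0.11 without A3). Cdkn1a, the cell cycle inhibitor p21, gave 633, 631 and 573 CPM with vehicle and 443, 429 and 448 CPM with CBD (log2 fold change -0.48, SE 0.13, unadjusted p 0.000816). Its CBD libraries were close to each other and below each vehicle library. Mdm2, the ubiquitin ligase of p53, gave 93.1, 97.1 and 146 CPM with vehicle and 79.7, 81.7 and 74.2 CPM with CBD (log2 fold change -0.52, SE 0.16, unadjusted p 0.00392). Eda2r, of the TNF receptor family, gave 10.5, 14.2 and 11.3 CPM with vehicle and 6.97, 6.05 and 3.39 CPM with CBD (log2 fold change -1.10, SE 0.42, unadjusted p 0.015). Without A3, Cdkn1a and Plk2 passed FDR 0.1 (0.795% of all genes, lower). Of the BCL-2 family, which controls apoptosis, none of 12 tested genes had an unadjusted p below 0.05.

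Interferon-stimulated genes were lower on balance as well. Of 30 tested members, 25 had a negative log2 fold change, the median was -0.35, and 10 had an unadjusted p below 0.05, all lower. Over all genes, 3.9% were lower at that level and 52% had a negative log2 fold change. Mndal alone passed FDR 0.1. Isg15, a ubiquitin-like modifier, gave 14.9, 22.7 and 14.004 CPM with vehicle and 4.85, 6.92 and 7.21 CPM with CBD (log2 fold change -1.44, SE 0.38, unadjusted p 0.000871). Oasl2 gave 21.5, 14.2 and 20.6 CPM with vehicle and 6.06, 7.78 and 8.05 CPM with CBD (log2 fold change -1.38, SE 0.35, unadjusted p 0.000587), and Ifit1, which binds viral RNA, gave 10.5, 14.8 and 17.3 CPM with vehicle and 5.76, 8.65 and 1.70 CPM with CBD (log2 fold change -1.41, SE 0.42, unadjusted p 0.00228). In each of these genes A3 stood with A1 and A2, above the CBD libraries. Ifi204, a DNA sensor of the same cluster as Mndal, gave 20.9, 22.2 and 16.5 CPM with vehicle and 9.09, 9.95 and 6.36 CPM with CBD (log2 fold change -1.21, SE 0.29, unadjusted p 0.000282), and Usp18, the protease that removes ISG15, gave 7.71, 7.91 and 5.77 CPM with vehicle and 2.42, 3.03 and 2.54 CPM with CBD (log2 fold change -1.39, SE 0.55, unadjusted p 0.0175). Apart from Mndal these genes were low in both groups. Oasl1 followed the pattern of Mndal, with 49.6, 45.9 and 8.51 CPM with vehicle and 8.79, 11.7 and 9.75 CPM with CBD, and its libraries overlapped. Without A3 the median was -0.45, and Isg15, Oasl1, Ifi204 and Mndal passed FDR 0.1, against 0.795% of all genes.

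Of 25 tested cytokines and targets of NF-κB, 8 had an unadjusted p below 0.05 and were lower (3.9% of all genes), and 3 were higher (3.36%). The median of -0.30 was 0.01 without A3. Ccl2 gave 33.04, 26.9 and 224 CPM with vehicle and 29.7, 28.1 and 32.6 CPM with CBD, with an estimate of -1.70 that was 0.01 without A3 (FDR 0.996). Cxcl1 gave 18.7, 13.7 and 118 CPM with vehicle and 25.2, 23.8 and 9.32 CPM with CBD, and Ptgs2, the inducible cyclooxygenase, gave 67.2, 73.9 and 175 CPM with vehicle and 57.6, 63.1 and 53.4 CPM with CBD. A1 and A2 were within the CBD range or near it for Ccl2 and Cxcl1 and above it for Ptgs2, and A3 was far above all the others. In 7 of the 8 lower genes A3 was the highest library. The members with higher values in CBD were Il1rn, Saa3 and Cxcl12. Saa3, an acute-phase protein, gave 164, 162 and 287 CPM with vehicle and 409, 358 and 312 CPM with CBD (log2 fold change 0.80, SE 0.22, unadjusted p 0.00118), and its estimate was 1.14 without A3 (FDR 0.00504). Cxcl12, a chemokine of stromal cells, gave 522, 474 and 516 CPM with vehicle and 717, 677 and 579 CPM with CBD (log2 fold change 0.38, SE 0.16, unadjusted p 0.0242).

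Among heat shock genes, 5 of 17 had an unadjusted p below 0.05, all lower (3.9% of all genes), and the list had a median of -0.24 that was 0.05 without A3. Without A3, Hspb8, a small heat shock protein, passed FDR 0.1 as lower, against 0.795% of all genes. Hspa1b gave 11.01, 11.6 and 95.3 CPM with vehicle and 17.6, 22.9 and 14.8 CPM with CBD, with an estimate of -1.18 that was 0.70 without A3 (FDR 0.448). Hsp90aa1, the inducible HSP90, gave 1715, 1799.8 and 1444 CPM with vehicle and 1362, 1333 and 1419.9 CPM with CBD (log2 fold change -0.27, SE 0.12, unadjusted p 0.0404), and the cochaperone Dnajb1 gave 202, 204 and 218 CPM with vehicle and 143, 183 and 147 CPM with CBD (log2 fold change -0.40, SE 0.16, unadjusted p 0.0167). For those 2 genes the groups did not overlap and A1 and A2 were above CBD. Chaperones of the endoplasmic reticulum, which report on unfolded proteins, had no member of 19 at an unadjusted p below 0.05, and their median was 0.08.

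**Figure D3:**
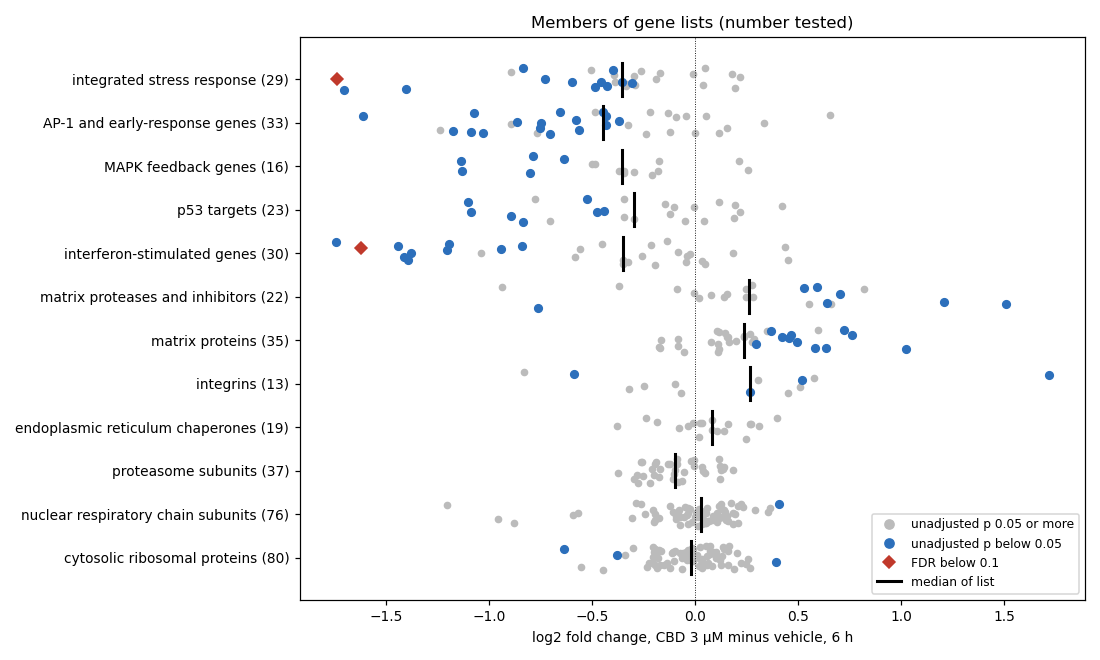
Log2 fold change (CBD 3 µM minus vehicle, 6 h) of each tested member of 12 gene lists, with the number tested in brackets. Grey points have an unadjusted p of 0.05 or more, blue points one below 0.05, red diamonds an FDR below 0.1, and black bars are list medians. The stress, early-response and interferon lists reach to the left and the matrix lists to the right. The ribosomal and respiratory chain lists centre near 0, and the proteasome list has a median of -0.10.

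Targets of the redox factor NRF2 and genes of iron handling gave values in both directions. A negative log2 fold change was seen in 16 (52% of all genes), and the median of -0.29 was -0.03 without A3. Without A3, 3 members passed FDR 0.1, all lower, against 0.795% of all genes. Of 23 tested, Hmox1 passed FDR 0.1, 3 further genes had an unadjusted p below 0.05 and were lower, and 2 were higher, against 3.9% and 3.36% of all genes. Gclm, the regulatory subunit of glutathione synthesis, gave 121, 110.3 and 70.02 CPM with vehicle and 62.7, 67.5 and 74.6 CPM with CBD (log2 fold change -0.54, SE 0.20, unadjusted p 0.0103), where A3 was at the level of CBD. Srxn1, sulfiredoxin, gave 124, 119 and 137 CPM with vehicle and 97.6, 93.8 and 104 CPM with CBD (log2 fold change -0.36, SE 0.16, unadjusted p 0.0327). On the higher side, Gstm1, a glutathione transferase, gave 82.6, 78.6 and 73.3 CPM with vehicle and 113, 116 and 111 CPM with CBD (log2 fold change 0.54, SE 0.16, unadjusted p 0.0023), and Prdx1, a peroxiredoxin, gave 692, 772 and 958 CPM with vehicle and 1071, 992 and 946 CPM with CBD (log2 fold change 0.31, SE 0.15, unadjusted p 0.0445). The groups did not overlap for Gstm1 and Srxn1.

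In the autophagy list of 20 genes, Sqstm1 and Gabarapl1 had an unadjusted p below 0.05 and were lower, and 2 were higher, against 3.9% and 3.36% of all genes. The higher ones were Map1lc3a, an LC3 protein of the autophagosome, at 270.4, 265 and 211 CPM with vehicle and 299, 323 and 319 CPM with CBD (log2 fold change 0.34, SE 0.15, unadjusted p 0.0306), and Ulk1, the kinase that starts autophagy, at 24.8, 26.9 and 26.4 CPM with vehicle and 42.1, 33.7 and 34.3 CPM with CBD (log2 fold change 0.50, SE 0.21, unadjusted p 0.0262). Of 24 lysosomal genes, 3 were higher and 1 lower at that level, beside the same shares of all genes. Psap, the precursor of the saposins, gave 146, 152 and 256 CPM with vehicle and 254, 291 and 285 CPM with CBD (log2 fold change 0.57, SE 0.22, unadjusted p 0.017), and A3 stood with the CBD libraries. Pld3, a lysosomal nuclease, gave 63.3, 65.4 and 59.6 CPM with vehicle and 92.5, 89.96 and 126 CPM with CBD (log2 fold change 0.71, SE 0.17, unadjusted p 0.000256), with no overlap. Without A3 both Psap and Pld3 passed FDR 0.1 as higher, against 0.3% of all genes. Of 21 genes of the hypoxia list, 15 had a negative log2 fold change, the median was -0.13, and 2 were higher and 2 lower at an unadjusted p below 0.05 (3.36% and 3.9% of all genes). The lower ones were Ndrg1, described above, and Adm, the vasodilator adrenomedullin, at 87.01, 32.7 and 46.7 CPM with vehicle and 32.7, 29.8 and 33.9 CPM with CBD (log2 fold change -0.77, SE 0.36, unadjusted p 0.0401), with overlap. Bnip3l, a receptor of mitophagy, gave 44.6, 38.5 and 38.99 CPM with vehicle and 50.9, 58.8 and 61.5 CPM with CBD (log2 fold change 0.49, SE 0.17, unadjusted p 0.00899) and Pfkfb4, a regulator of glycolysis, gave 4.41, 2.64 and 4.67 CPM with vehicle and 10.003, 9.51 and 11.02 CPM with CBD (log2 fold change 1.34, SE 0.38, unadjusted p 0.00181), both higher in every CBD library. Beside Plin2, the 20 tested genes of lipid droplets and fatty acid use held 1 with an unadjusted p below 0.05, Dgat1, an enzyme of triglyceride synthesis, at 31.4, 41.7 and 27.2 CPM with vehicle and 44.3, 43.7 and 47.9 CPM with CBD (log2 fold change 0.45, SE 0.21, unadjusted p 0.0376).

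Genes of the extracellular matrix lay mostly on the higher side. Of 35 matrix proteins tested, 29 had a positive log2 fold change, and the median was 0.24. An unadjusted p below 0.05 was reached by 11, all higher (3.36% of all genes), and in 17 each CBD library was above each vehicle library (6.83% of all genes). None passed FDR 0.1. The median was 0.25 without A3, and Mgp then passed as higher, against 0.3% of all genes. Summed over the list, the members took from 14856 to 16319.7 CPM with vehicle and from 18157 to 19593 CPM with CBD, ranges that did not overlap.

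Fbln5, which assembles elastic fibres, gave 107, 125 and 100.5 CPM with vehicle and 167, 159 and 169.5 CPM with CBD (log2 fold change 0.58, SE 0.13, unadjusted p 0.000202). Lox, which crosslinks collagen and elastin, gave 836, 693 and 584 CPM with vehicle and 982, 957 and 959 CPM with CBD (log2 fold change 0.46, SE 0.18, unadjusted p 0.0172), and its relative Loxl1 gave 130.0, 114 and 111 CPM with vehicle and 184, 149.6 and 154 CPM with CBD (log2 fold change 0.46, SE 0.17, unadjusted p 0.0135). Igfbp4, a secreted binding protein of insulin-like growth factors, gave 399, 415 and 357 CPM with vehicle and 602, 630.1 and 585 CPM with CBD (log2 fold change 0.63, SE 0.17, unadjusted p 0.000957). In these 4 genes every CBD library was above every vehicle library, and A3 was the lowest of all. Postn, periostin, gave 85.4, 86.01 and 107 CPM with vehicle and 125, 139 and 112 CPM with CBD (log2 fold change 0.42, SE 0.18, unadjusted p 0.027), and A3 was the vehicle library nearest to CBD. The fibrillar collagen Col1a1 had a log2 fold change of 0.11 (unadjusted p 0.414).

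Matrix proteases and their inhibitors gave 6 of 22 genes at an unadjusted p below 0.05 that were higher and 1 that was lower (3.36% and 3.9% of all genes), with a median of 0.26 that was 0.44 without A3. Mmp3, stromelysin 1, gave 454, 513 and 579 CPM with vehicle and 856, 792 and 761 CPM with CBD (log2 fold change 0.64, SE 0.15, unadjusted p 0.000226). Timp1, an inhibitor of metalloproteinases, gave 701, 729.7 and 812 CPM with vehicle and 1164, 1011 and 1067 CPM with CBD (log2 fold change 0.53, SE 0.13, unadjusted p 0.000418), and Mmp10, stromelysin 2, gave 9.36, 7.39 and 9.88 CPM with vehicle and 23.6, 20.3 and 18.2 CPM with CBD (log2 fold change 1.21, SE 0.37, unadjusted p 0.00338). No vehicle library reached the lowest CBD library in these genes. Mmp13, collagenase 3, gave 97.5, 99.2 and 192 CPM with vehicle and 242, 223 and 177 CPM with CBD (log2 fold change 0.71, SE 0.20, unadjusted p 0.00167), with A3 among the CBD libraries. Without A3, Mmp3, Mmp13, Timp1 and Adamts7 passed FDR 0.1, all higher, against 0.3% of all genes.

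Of 13 tested integrins, 3 were higher at an unadjusted p below 0.05 (3.36% of all genes) and 1 was lower (3.9%). Itgb5, a receptor subunit for vitronectin, gave 225, 221 and 185 CPM with vehicle and 318, 303 and 279 CPM with CBD (log2 fold change 0.52, SE 0.14, unadjusted p 0.00125), without overlap. Itgb1, the shared β1 subunit, gave 796, 804 and 969 CPM with vehicle and 1064, 1057 and 968 CPM with CBD (log2 fold change 0.26, SE 0.12, unadjusted p 0.0354), with A3 within the CBD range. Itga5, the α subunit of the fibronectin receptor, gave 26.98, 18.5 and 26.9 CPM with vehicle and 13.6, 11.7 and 23.3 CPM with CBD (log2 fold change -0.59, SE 0.27, unadjusted p 0.0398), with overlap. Of 21 genes of the contractile apparatus, 3 were higher at that level and none lower, beside the same shares of all genes, and the median of 0.07 was -0.03 without A3. The higher ones were Acta2, Tpm4 at 552, 547 and 731 CPM with vehicle and 850.3, 903 and 772 CPM with CBD and Flna at 1159, 1139 and 862 CPM with vehicle and 1291, 1259 and 1288 CPM with CBD. A3 was the lowest library for Acta2 and Flna and the highest vehicle library for Tpm4. Without A3, Tpm4 passed FDR 0.1 as higher, against 0.3% of all genes. The log2 fold change of Acta2 was 0.48 without A3 (FDR 0.128) and that of Flna 0.15 without A3 (FDR 0.651).

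**Figure D4:**
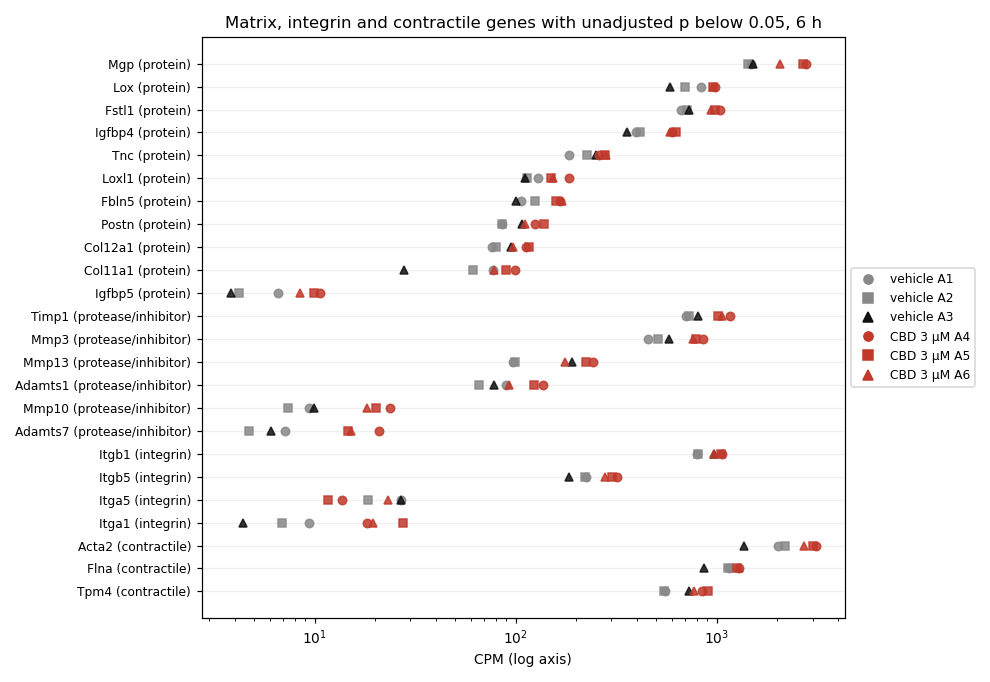
Level in CPM (log axis) of matrix, integrin and contractile genes with an unadjusted p below 0.05, for vehicle libraries A1 and A2 (grey), vehicle library A3 (black) and CBD libraries A4 to A6 (red). The red symbols lie to the right of A1 and A2 in most genes but not in Itga5, and A3 lies among the red symbols for Mmp13 and Itgb1.

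Host genes of small nucleolar RNAs and nuclear long non-coding RNAs were mostly lower, with 4 of 13 at an unadjusted p below 0.05, all lower (3.9% of all genes), and a median of -0.38 (-0.17 without A3). Gas5, a host RNA that accumulates on growth arrest, gave 219, 223 and 179.6 CPM with vehicle and 143, 169 and 173 CPM with CBD (log2 fold change -0.36, SE 0.14, unadjusted p 0.0157), and Snhg1 gave 182, 187 and 272 CPM with vehicle and 157, 142 and 134 CPM with CBD (log2 fold change -0.57, SE 0.16, unadjusted p 0.00131). A3 was the lowest vehicle library for Gas5 and the highest for Snhg1. Among 10 tested genes of the 7SK complex and P-TEFb, Mepce, which caps 7SK, gave 62.2, 52.2 and 43.4 CPM with vehicle and 33.3, 46.7 and 38.99 CPM with CBD (log2 fold change -0.40, SE 0.19, unadjusted p 0.041), and beside it and Rn7sk none had an unadjusted p below 0.05.

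Lists of basic machinery had few members at an unadjusted p below 0.05. At that level 3.36% of all genes were higher and 3.9% lower. Of 80 cytosolic ribosomal proteins, 1 was higher and 2 were lower at an unadjusted p below 0.05, with a median of -0.02. Of 76 nuclear subunits of the respiratory chain, 1 was higher, and none of 37 proteasome subunits (median -0.10) and none of 8 tested genes of the mitochondrial genome reached that level. Of the proteasome subunits, 27 had a negative log2 fold change (52% of all genes). Summed over that list, they took from 8312 to 8350 CPM with vehicle and from 8004 to 8077 CPM with CBD, without overlap. Mitotic genes, which report on dividing cells, had 22 of 25 positive log2 fold changes and a median of 0.14, with 1 at an unadjusted p below 0.05, and DNA replication genes had a median of -0.01. None of 16 glycolysis genes reached it. In sterol and fatty acid synthesis 1 of 26 was higher, Scd1, and 1 lower, Srebf2, and in the circadian clock Nfil3 was higher at 40.2, 31.7 and 29.4 CPM with vehicle and 52.4, 50.6 and 51.7 CPM with CBD and Bhlhe40 lower at 27.5, 25.9 and 25.5 CPM with vehicle and 15.2, 23.8 and 16.5 CPM with CBD. TGF-β signalling gave 2 of 23 higher, and targets of YAP and TEAD gave 1 of 16 lower, Ccn2. No gene named in this paragraph passed FDR 0.1.

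Of 22 genes of proposed targets of CBD, 7 had no read. Cnr1, Cnr2, Gpr55, Htr1a, Trpv1, Trpm8 and Adora1 were at 0 in all 6 libraries, where 3 reads would correspond to between 0.839 and 1.63 CPM. Of 9 tested proposed targets, the most abundant were Vdac1, the mitochondrial anion channel, at 252, 228 and 235 CPM with vehicle and 195, 211 and 211 CPM with CBD, and Slc29a1, the nucleoside transporter ENT1, at 135, 156 and 199 CPM with vehicle and 206, 199 and 173 CPM with CBD. Their log2 fold changes were -0.21 and 0.23, with unadjusted p of 0.107 and 0.149. Napepld, an enzyme of anandamide synthesis, had an unadjusted p of 0.0267 at 4.41, 1.06 and 1.65 CPM with vehicle and 3.33, 6.92 and 8.48 CPM with CBD, with overlap. Of 7 tested neuronal markers among the 19, Nefl and Nefm, the light and medium neurofilaments, had an unadjusted p below 0.05. Both were lower (log2 fold change -0.60 and -0.49), against 3.9% of all genes, and the libraries overlapped for Nefm. Summed over the list, neuronal markers ranged from 193 to 231 CPM with vehicle and from 166 to 195 CPM with CBD. Glial markers ranged from 25.7 to 57.6 CPM with vehicle and from 32.4 to 38.9 CPM with CBD, and their part in the results was not tested.

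The next question was whether the highest dose differed from the lower ones. CBD at 3 µM was set against the mean of 0.325, 0.75 and 1.5 µM at 6 h, 9 libraries in all. No gene passed FDR 0.1 in edgeR (0%), where 624 genes had an unadjusted p below 0.05 (5.19%), and none passed in DESeq2, where 569 had one. The comparisons of each dose with vehicle share the libraries A1, A2 and A3, so their changes are given side by side and not counted as agreement. Ppp1r15a was from 8.93 to 15.6 CPM in the 9 libraries of lower dose, below every vehicle library, with log2 fold changes of -1.60, -1.52 and -1.43 and FDR of 0.0333, 0.0338 and 0.0477 from the lowest dose up. Against those doses it differed at 3 µM by -0.22 (SE 0.25). Hmox1 ranged from 23.5 to 81.5 CPM, with log2 fold changes of -1.44, -0.46 and -1.32, so that the change was smallest at 0.75 µM.

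Maf ranged from 122 to 206 CPM at the lower doses, above each vehicle library, with log2 fold changes of 0.50, 0.65 and 0.71 and FDR of 0.274, 0.159 and 0.112. Plin2 ranged from 76.4 to 114 CPM, with log2 fold changes of -0.66, -0.55 and -0.78 and FDR of 0.183, 0.378 and 0.127. For Mndal the lower doses gave -1.80, -1.14 and -1.55 and for Rn7sk -2.31, -2.40 and -2.89. Mmp3, which missed the threshold at 3 µM, passed at each lower dose, with log2 fold changes of 0.74, 1.02 and 0.89 and FDR of 0.0373, 0.00427 and 0.0175. The 5 genes of smallest p between 3 µM and the lower doses were Gpn1, Usp46, Usp34, Eya3 and Ndufaf6, each with an FDR of 0.905 or more. Ndufaf6, an assembly factor of respiratory complex I, was at 6.06, 6.86 and 6.86 CPM with vehicle and 17.9, 12.5 and 14.4 CPM with CBD and from 5.42 to 11.1 CPM at the lower doses. Usp46, a deubiquitinase, was at 18.7, 22.2 and 13.7 CPM with vehicle and 38.5, 29.4 and 27.97 CPM with CBD and from 13.7 to 22.4 CPM at the lower doses.

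The last question was whether the change with CBD at 3 µM differed between 24 h and 6 h, tested as an interaction over all 30 libraries. At FDR below 0.1, 14 of 12790 genes differed (0.109%), 4 with a change that was higher at 24 h (0.0313%) and 10 with one that was lower (0.0782%), and 1334 had an unadjusted p below 0.05 (10.4%). That count was 318 without A3, from 1 to 178 when one library of the 24 h groups was left out, and 7, 3 and 4 without A2, A4 and A5. At 24 h alone, 1110 of 12118 genes had an unadjusted p below 0.05 (9.16%) and 1 passed (0.00825%), Elp6, a subunit of the Elongator complex that modifies transfer RNAs. Elp6 gave 27.5, 27.5 and 33.7 CPM with vehicle and 172, 64.2 and 97.3 CPM with CBD at 24 h, and 181, 169 and 125 CPM against 126, 133 and 109.1 CPM at 6 h. Its log2 fold change was -0.36 at 6 h and 1.92 at 24 h (difference 2.27, SE 0.31, FDR 9.7e-05). The vehicle level of Elp6 at 24 h was below all the other values of both times.

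Maf and Plin2 were the genes past the threshold at 6 h whose change also differed between the times. Maf had log2 fold changes of 0.78 at 6 h and -0.44 at 24 h (difference -1.22, SE 0.24, FDR 0.0342). At 24 h it gave 457, 267 and 308 CPM with vehicle and 195, 312 and 256 CPM with CBD, so that both groups were above the vehicle level of 6 h and overlapped. Plin2 had log2 fold changes of -0.90 at 6 h and 0.12 at 24 h (difference 1.02, SE 0.23, FDR 0.0761), and its libraries at 24 h overlapped as well. Itga1 had log2 fold changes of 1.73 at 6 h and -0.21 at 24 h (difference -1.94, SE 0.39, FDR 0.0342). It gave 32.6, 26.5 and 25.2 CPM with vehicle and 25.9, 22.7 and 24.5 CPM with CBD at 24 h, against 9.45, 6.94 and 4.44 CPM with vehicle at 6 h. For Ppp1r15a the vehicle mean at 24 h was 12.96 CPM and the CBD mean 10.01 CPM, and for Hmox1 the means were 46.3 and 44.7 CPM. The difference between the times did not pass FDR 0.1 for Ppp1r15a (0.327) or Hmox1 (0.113). List medians at 24 h were 0.15 for the integrated stress response, 0.03 for interferon-stimulated genes and -0.18 for matrix proteins. Some other lists kept the sign of 6 h, with -0.11 for early-response and AP-1 genes. The list of small nucleolar RNA hosts and nuclear long non-coding RNAs had -0.12.

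**Figure D5:**
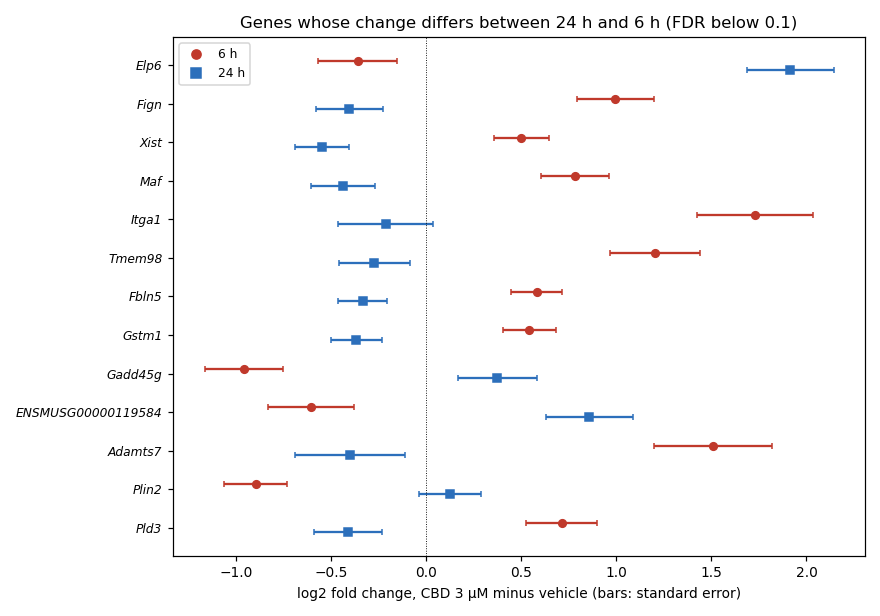
Log2 fold change of CBD 3 µM against vehicle at 6 h (red circles) and at 24 h (blue squares), with standard errors, for 13 of the 14 genes whose change differed between the times at FDR below 0.1. The estimates lie on opposite sides of 0 at 6 h and 24 h in these 13 genes, with Elp6 the only one past 1 in size at 24 h.

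Measures of the libraries were compared by exact permutation tests, two-sided, in which 3 against 3 cannot give a p below 0.1. Mitochondrial genes took 7.996% ± 0.423 (SD, n = 3) of reads on genes with CBD and 8.39% ± 0.0631 (SD, n = 3) with vehicle (exact p = 0.3). Reads outside genes made up 19.4% ± 0.052 (SD, n = 3) with CBD and 20.04% ± 1.89 (SD, n = 3) with vehicle (exact p = 0.7), and A3 had the lowest share, 17.9%. With this share as a covariate, 79 genes passed FDR 0.1, all of the 6 genes among them.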

How the data were processed

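Per the labels and the methods, total RNA was made into 30 QuantSeq 3′ mRNA-Seq libraries. The authors trimmed the reads, aligned them to GRCm39 with STAR 2.7.5c and counted them per Ensembl gene with HTSeq 1.99.2, after a quality check with FastQC 0.11.9 (versions from the submitters' processing notes). The use of strand in counting is not given in the sources used here. The deposited values are raw counts of 56941 genes, without normalization.

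Libraries were grouped by treatment label. With edgeR 4.0.16 in R 4.3.3, one mean per group was fitted to the 15 libraries of 6 h after filterByExpr and TMM scaling. Contrasts took the quasi-likelihood F-test, and p-values were adjusted after Benjamini and Hochberg across the whole table, with calls at an FDR below 0.1. All 30 libraries entered the test of 24 h against 6 h. CPM of single genes include the TMM factors. GENCODE M21 gave symbols for 51948 genes, and 2 symbols of the lists found no match. It and the RefSeq promoter table are on GRCm38, so gene coordinates are not given.

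The text names the genes past the threshold, those on the study's list for this comparison, the 20 of smallest p without overlap, list members with an unadjusted p below 0.05 or of highest level, and the leading 5 against lower doses and between times. Genes named for library A3, or for passing without it, were chosen after their values were seen. The members and lists were chosen with earlier results of these data known. DESeq2 1.42.0, other scalings and filters, covariates, a fit of only the 2 groups and leaving out each library were alternatives. The tests were also run on simulated data. Some results are not reported here.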

Additional observations from a re-analysis of the deposited data

Results flagged for a closer look

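The change with CBD at 3 µM differed between 24 h and 6 h in 14 genes, of which 13 are given here, by an interaction term in edgeR over 30 libraries at an FDR below 0.1. The values are the log2 fold change at 24 h minus that at 6 h. The change was higher at 24 h for Elp6, a subunit of Elongator (2.27), for ENSMUSG00000119584, which has no symbol here (1.46), for the stress gene Gadd45g (1.33) and for Plin2, the lipid droplet coat protein (1.02). It was lower at 24 h for Itga1, the integrin α1 (-1.94), Adamts7, a metalloproteinase (-1.91), Tmem98, a membrane protein (-1.48), Fign, a microtubule-severing enzyme (-1.40), and the transcription factor gene Maf (-1.22). It was also lower for Pld3, a lysosomal nuclease (-1.12), Xist, the RNA that silences an X chromosome (-1.05), Fbln5 of elastic fibres (-0.91) and the glutathione transferase Gstm1 (-0.91). At 6 h Gadd45g was at 60.6, 61.9 and 121 CPM with vehicle, the last in A3, and at 41.9, 44.1 and 41.7 CPM with CBD.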

How the results depend on the processing

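The 6 genes that differed between CBD at 3 µM and vehicle became 48 with DESeq2 and 92 without a filter on low counts. They became 79 with a covariate for reads outside genes and 37 with one for log2 reads. With only the 2 groups compared they became 3, of which 2 were among the 6. Leaving out one library gave from 0 to 135. The count against the lower doses was 2 with no filter and 0 with each library left out. The 14 genes that differed between the times became 61 with DESeq2, 142 with no filter and 25 with the covariate of reads outside genes, and from 1 to 318 with one library left out. The difference in the share of reads outside genes lay between -1.69 and 0.0793 percentage points with one library left out, and turned positive without A1. The cause was not tested. RLE scaling, library size only and mitochondrial genes left out gave 6 genes again, and none of the 45 genes named by a threshold, a rank or the study's list reversed its direction. Of the list members named beside them, Ccl2, Hspa1a, Cxcl1, Hspa1b and Col1a1 changed the sign of their estimate without A3, none past the threshold. The list counts without A3 were an alternative chosen after seeing the data. No paired analysis was possible because nothing in the titles or treatment labels ties a library of one group to one of another. With 3 libraries a group, each at 1839621 reads or more, changes in genes of few reads were hard to detect.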
